A study of Mus musculus with 13 samples.

Results

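Crabp1 Pla2g7 fibroblasts are the mammary stromal cells in which transcripts of at least 2 of 5 marker genes, Crabp1, Pla2g7, Stra6, Col13a1 and Nos1, were detected. In the same cells Pi16 and Fabp4, markers of progenitor and preadipocyte fibroblasts, each stayed under 5 per 10000 unique molecular identifiers (UMIs, each a counted transcript molecule). They were taken from barcodes with 500 to 7500 genes and at most 10% mitochondrial UMIs that passed a fibroblast gate. The gate asked for at least 50 UMIs of Dcn, Lum and Col1a2 together per 10000 UMIs and for no UMI of Epcam, Pecam1, Rgs5, Sox10, Ptprc or Myog, which mark epithelial, endothelial, mural, glial, blood and muscle cells. Of 120355 barcodes in 13 libraries, 100523 passed as fibroblasts, and 13927 of these were Crabp1 Pla2g7 fibroblasts. The other 86596 are called the remaining fibroblasts. Since measured transcripts chose the cells, all values of the 5 markers, and all differences between these cells and the remaining fibroblasts, are descriptions with no test.

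The study profiled mouse mammary fibroblasts by droplet single-cell RNA sequencing through development, under hormones and during tumor formation. Single libraries came from wild-type C57BL/6 females at puberty (4 weeks), as 9-week adult virgins, at 14.5 days of pregnancy, at 10 days of lactation and at 4 days of involution, and each drew on 2 females. Wild-type C57BL/6 females given placebo or MPA+E (medroxyprogesterone acetate, a synthetic progestin, with estradiol) were 9 weeks old at collection, with 2 libraries of each. Per the methods each placebo or MPA+E library pooled a pair of mice. All 9 wild-type libraries held sorted cells lacking lineage markers (CD31, CD45 and TER-119) and CD24. The other 4 libraries held sorted GFP-positive cells of raGFP-Wnt1 females of the genotype Pdgfra-GFP KI/+ MMTV-Wnt1 T/+ on a mixed C57BL/6 and FVB background. In these mice a mouse mammary tumor virus promoter drives Wnt1, and GFP reports Pdgfra. Hyperplastic gland and tumor 1 came from the same mouse of 45 weeks, and hyperplastic gland and tumor 2 from a mouse of 17 weeks. The normal tissue set against hyperplasia, puberty with adult, was therefore of another strain, sort and age, and had neither allele.

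Crabp1 binds retinoic acid in the cytoplasm, and Stra6 is the membrane receptor through which cells take up retinol. Pla2g7 encodes the secreted hydrolase of platelet-activating factor, Col13a1 a transmembrane collagen, and Nos1 neuronal nitric oxide synthase, whose product acts on soluble guanylate cyclase. Matrix-remodeling fibroblasts lay down, crosslink and cut the collagenous matrix around the mammary ducts. Matrix turnover is a known feature of ductal growth in puberty and of gland regression after weaning. In GRCm38 the marker genes lie at chr9:54764748-54773110 on the plus strand (Crabp1), chr17:43568098-43612201 on the plus strand (Pla2g7), chr9:58063788-58153996 on the plus strand (Stra6), chr10:61838236-61979108 on the minus strand (Col13a1) and chr5:117781032-117958840 on the plus strand (Nos1).

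The libraries held 56551189 to 112550204 UMIs. Crabp1 Pla2g7 fibroblasts had a median of 4141 (adult) to 22809 (tumor 2) UMIs per cell, and the remaining fibroblasts 3944 (pregnancy) to 19459 (tumor 2). The markers were thus easier to detect in some libraries than in others, and the shares of selected cells among fibroblasts are also given after each cell was thinned to 3000 UMIs. Marker combinations are given at full depth only. Doublet calls took 0.939% to 9.41% of the selected and 2.97% to 10.6% of the remaining fibroblasts per library, and these cells were kept. In all, 24 of 13903 cell barcodes occurred in more than 1 library. In members, transcripts of lists of other cell types summed to at most 2.08 counts per 1000000 UMIs (CPM) for adipocytes, 3.30 for muscle, 13.9 for Schwann cells, 8.33 for macrophages, 20.8 for endothelium, 32.9 for epithelium and 65.2 for pericytes in any library. Milk protein transcripts (Csn2, Csn3, Csn1s1, Wap and Lalba) reached 309.9 CPM in lactation.

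The share of Crabp1 Pla2g7 fibroblasts among all fibroblasts was smallest at puberty and largest in hyperplasia. It was 0.744% at puberty (53 cells; exact 95% binomial interval 0.558 to 0.972), 4.94% in the adult (590 cells; 4.56 to 5.34), 3.97% in pregnancy (457 cells; 3.62 to 4.35), 7.38% in lactation (624 cells; 6.83 to 7.96) and 7.40% in involution (730 cells; 6.89 to 7.94). The involution share was 9.94 times that of puberty (95% interval 7.54 to 13.1), and the lactation and involution intervals overlapped. These intervals cover counting error only, and with 1 library per stage no difference between stages has a replicate check. Thinned to 3000 UMIs, the shares were 0.376%, 3.24%, 3.35%, 3.19% and 3.66% in the same order. The puberty library thus stayed lowest, and the other 4 stages fell between 3.19% and 3.66%. At full depth without the limits on Pi16 and Fabp4 they were 0.857%, 6.05%, 5.20%, 13.4% and 11.7%. The placebo libraries, of the strain, sort and age of the adult, held 15.0% and 11.1% of selected cells, or 7.99% and 6.30% thinned. Libraries of 9-week wild-type mice thus differed by more than those 4 stages did.

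Both MPA+E libraries held larger shares than both placebo libraries. Placebo 1 and 2 had 15.0% (727 cells) and 11.1% (639 cells), and MPA+E 1 and 2 had 22.0% (1135 cells) and 23.8% (2066 cells), a difference of 9.84 percentage points (13.1% ± 2.77 against 22.9% ± 1.22, SD, n = 2 libraries). After thinning the means were 7.14% ± 1.20 and 13.6% ± 1.41, a difference of 6.47 points. Tumors held smaller shares than the hyperplastic glands of the same mice: 34.3% (2071 cells) and 30.3% (2417 cells) in hyperplasia 1 and 2 and 15.9% (1414 cells) and 23.7% (1004 cells) in tumor 1 and 2. The means were 32.3% ± 2.82 and 19.8% ± 5.55 (SD, n = 2), and 23.9% ± 0.924 and 7.72% ± 0.279 after thinning, when the tumors differed from hyperplasia by -16.2 points. None of these groups overlapped, and a two-sided exact permutation test gave p = 0.333 for each, the smallest that 2 against 2 libraries allow.

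**Figure D1:**
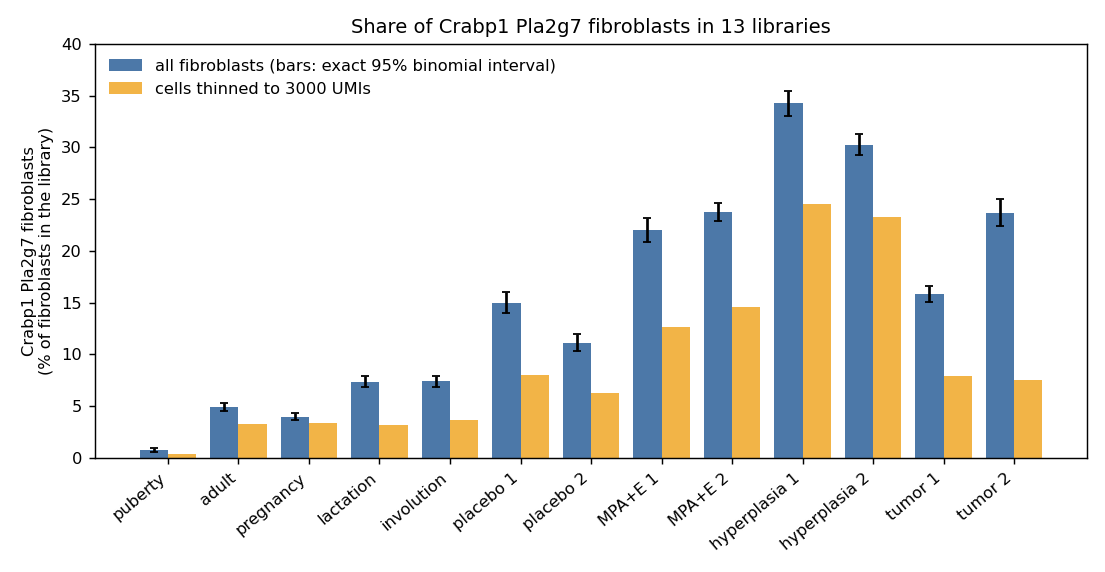
Share of Crabp1 Pla2g7 fibroblasts among the fibroblasts of each library in percent (blue, with the exact 95% binomial interval) and after every cell was thinned to 3000 UMIs (orange). Puberty is lowest at 0.744%, MPA+E lies above placebo, and tumors lie below hyperplasia on both scales.

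The markers that brought the cells in differed between groups. Crabp1 was detected in 61.7% (placebo 2) to 79.7% (MPA+E 1) of the selected cells in the wild-type libraries and in 93.8% to 98.2% in the 4 raGFP-Wnt1 libraries. Pla2g7 was found in 21.0% to 34.0% at puberty, pregnancy, lactation and involution, in 58.0% in the adult, in 73.0% and 77.9% under placebo and in 56.7% and 56.5% under MPA+E. It was found in 88.3% and 88.0% of the cells in hyperplasia and in 45.3% and 47.5% in tumors. Stra6 ran the other way, with 11% and 15.2% in hyperplasia and 64.9% and 78.6% in tumors. Nos1 was found in 31.8% and 36.8% of the cells in hyperplasia but in 9.55% and 4.88% in tumors, and in 51.2% and 48.8% under placebo but 74.8% and 72.4% under MPA+E. For Pla2g7 the difference of MPA+E minus placebo was -18.9 points, and -26.1 points after thinning (74.5% ± 2.97 under placebo and 48.4% ± 0.587 under MPA+E, SD, n = 2), with no overlap. Thinning kept the orders of Pla2g7 and Stra6 between hyperplasia and tumors (Pla2g7 83.9% ± 0.206 in hyperplasia and 44.0% ± 5.61 in tumors; Stra6 7.36% ± 1.46 and 54.6% ± 6.61; SD, n = 2).

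Counted over all fibroblasts rather than the selected ones, and after thinning, Crabp1 was detected in 32.9% ± 0.750 of the cells in hyperplasia and 26.3% ± 3.40 in tumors, and Pla2g7 in 25.4% ± 0.897 and 5.02% ± 0.297 (SD, n = 2). Crabp1 was detected in 6.34% ± 1.23 under placebo and 13.6% ± 1.49 under MPA+E, and Nos1 in 4.03% ± 0.686 and 12.5% ± 2.12. None of these pairs of groups overlapped. Pla2g7 over all fibroblasts overlapped between placebo and MPA+E (8.07% ± 1.27 and 8.33% ± 1.56). The most frequent combination was Crabp1 with Stra6 in tumors (37.6% and 37.4% of the selected cells). At puberty it was tied with Crabp1, Stra6 and Col13a1 together, at 17.0% each. It was Crabp1 with Col13a1 in the adult, pregnancy and lactation libraries (11.5%, 28.4% and 24.4%) and Crabp1 with Nos1 in involution (19.0%). It was all 5 markers under placebo (11.3% and 9.86%) and MPA+E (24.1% and 14.0%), and Crabp1 with Pla2g7 in hyperplasia (33.5% and 30.6%).

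**Figure D2:**
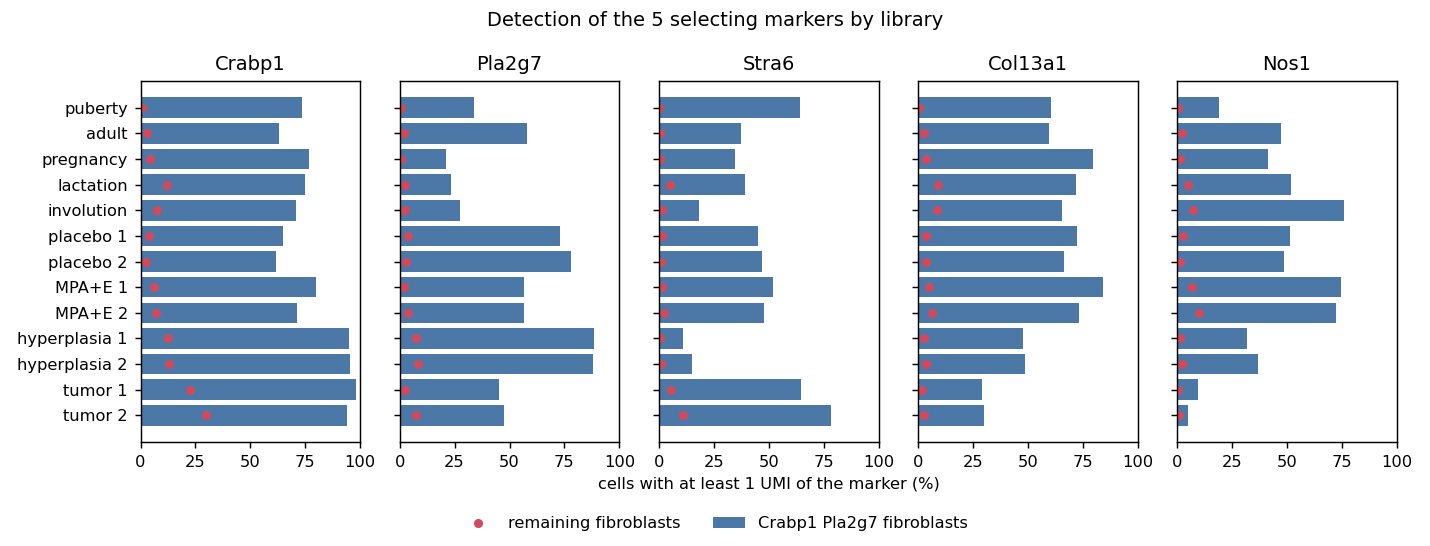
Percent of cells with at least 1 UMI of each selecting marker in the Crabp1 Pla2g7 fibroblasts (bars) and in the remaining fibroblasts (points) of the 13 libraries. Pla2g7 falls and Stra6 rises between the hyperplasia and tumor bars, and the points reach 29.8% for Crabp1 and at most 11.1% for the other 4 markers.

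Across the threshold, and within the limits on Pi16 and Fabp4, 8369 fibroblasts had 1 marker, 6372 had 2 and 7555 had 3 or more. Those limits had removed a further 2469 cells with at least 2 markers. Of the fibroblasts with at least 2 markers, they took 45.1% in the lactation library and 37.0% in the involution library. Fibroblasts with no marker, 1 marker and 2 markers had a median over libraries of 2.94, 22.2 and 47.7 CPM of Nes. The medians were 1187, 3259 and 4452 CPM for Postn and 1362, 365 and 183 CPM for C3. In these genes the cells with 1 marker lay in between. Nes and C3 were picked as leading genes of the same contrast, so this order was in part built in. Sbsn, also picked so, did not follow it (27.1, 27.8 and 10.2 CPM). Members without a Crabp1 UMI had 51.0 CPM of Nes and 5517 CPM of Postn, against 79.8 and 5356 CPM in members with one. Barcodes under the limit on Dcn, Lum and Col1a2 that also carried a UMI of another cell type gave the background of detection. Barcodes that failed the gate only by such a UMI were not counted. At least 2 markers were found in 0% to 0.581% of these barcodes in the wild-type libraries and in 7.02% (4 of 57), 1.42%, 3.51% and 2.62% in hyperplasia 1 and 2 and tumor 1 and 2, against 0.857% to 35.9% of the fibroblasts. Their median depth was 1764 to 11779 UMIs, against 3990 to 20256 in the fibroblasts of the same libraries. All barcodes under that limit, with or without a UMI of another cell type, were counted too. Of these, 0% to 4.42% had at least 2 markers in the wild-type libraries. The values were 16.3% and 12.1% in hyperplasia 1 and 2 and 17.5% and 4.17% in tumor 1 and 2. When each cell was placed among its 20 nearest fibroblasts without the genes of the rule, 31.4% (lactation) to 82.6% (MPA+E 1) of the neighbors of a selected cell were selected cells, against 0.277% to 14.8% for the remaining fibroblasts.

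Of 6 matrix-remodeling genes that the rule did not read, 3 were higher in all 13 libraries and 0 lower. Over all 6060 genes with at least 20 CPM, 771 (12.7%) were higher and 718 (11.8%) lower in all 13, in the contrast that the rule used. Postn, encoding the matricellular protein periostin, was higher in Crabp1 Pla2g7 fibroblasts than in the remaining fibroblasts of all 13 libraries, at a median of 5392 CPM (1759 to 7276) against 1533 CPM (343 to 3799.7). The matrix glycoprotein gene Tnc was higher in all 13 as well, at a median of 156 CPM (4.82 to 1347) against 9.89 CPM (1.56 to 956). Cdh11, a mesenchymal cadherin, was higher in 13 of 13 libraries (median log2 ratio 1.56), the stromelysin gene Mmp3 in 12 of 13 (puberty at -2.73), the collagenolytic protease gene Ctsk in 11 of 13 and the lysyl oxidase gene Lox in 10 of 13. All 8 progenitor genes on the list were lower in every library, with a median log2 ratio of -3.47. The rule left cells high in Pi16 among the remaining fibroblasts, so this is in part built into the selection. Among fibroblasts within the limits on Pi16 and Fabp4, the progenitor gene Dpp4 had a median of 121 CPM with no marker and 25.6 CPM with 2. Dpp4 was picked as one of the lowest genes of the same contrast, so that order was in part built in too. The wider matrix lists had no such lead, with 5 of 31 interstitial matrix genes higher and 4 lower in all 13 (median log2 ratio -0.04) and 2 of 15 collagen-modifying genes higher and 3 lower (-0.09). Of 20 further markers that the study names for such cells, 14 were higher in all 13 libraries, but these were chosen from the same samples and are not independent evidence.

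Of 6060 genes with at least 20 CPM, 32 (0.528%) were at least 2 fold higher and 45 (0.743%) at least 2 fold lower in every library, and these percentages describe the same contrast as the rule. The median log2 ratio over all 6060 genes was 0.0237. The 12 leading genes were Col25a1 (median log2 ratio 3.35, a transmembrane collagen like Col13a1), Sbspon (3.20), Rarres1 (3.19, first found as a retinoid-responsive gene), Col7a1 (3.17, the anchoring fibril collagen), Nes (3.13, the intermediate filament nestin), Map2 (3.12, a microtubule-associated protein), Amn (3.11, amnionless), Cbfa2t3 (3.10, a transcriptional corepressor), Robo2 (3.07, a Slit receptor), Scube1 (3.05), Angpt2 (2.94, the Tie2 ligand angiopoietin-2) and Mmd (2.90). Col25a1 stood at a median of 16.9 CPM (2.47 to 62.0) against 1.03 CPM (0.124 to 2.87), Nes at a median of 69.9 CPM (9.82 to 223) against 5.13 CPM (1.55 to 20.01) and Angpt2 at a median of 93.7 CPM (27.0 to 156) against 10.1 CPM (4.37 to 24.3) in the remaining fibroblasts. Each of these 12 genes had a median of at most 10.1 CPM in the remaining fibroblasts. The ranges over libraries overlapped for 7 of them (Col25a1, Sbspon, Nes, Amn, Cbfa2t3, Robo2 and Scube1).

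The 12 genes lowest in the selected cells were Dmkn (-4.36), Il33 (-4.33, the alarmin interleukin-33), Sema3c (-4.20, a semaphorin), Aldh1a3 (-4.16, a retinaldehyde dehydrogenase), Efhd1 (-4.02), Pcsk6 (-3.97, a proprotein convertase), Lurap1l (-3.86), Sbsn (-3.85), C3 (-3.63, complement component 3), Dpp4 (-3.62, the protease CD26), Cadm3 (-3.61) and Stxbp6 (-3.43). C3 stood at a median of 138 CPM (55.3 to 258) against 1557 CPM (245 to 2159) and Dpp4 at a median of 19.1 CPM (6.25 to 49.3) against 229 CPM (36.2 to 367). The size of the profile varied between libraries, with a median absolute log2 ratio over the called genes of 3.51 at puberty, 1.92 in lactation, 2.02 in involution, 2.34 in tumor 1 and 1.42 in tumor 2.

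**Figure D3:**
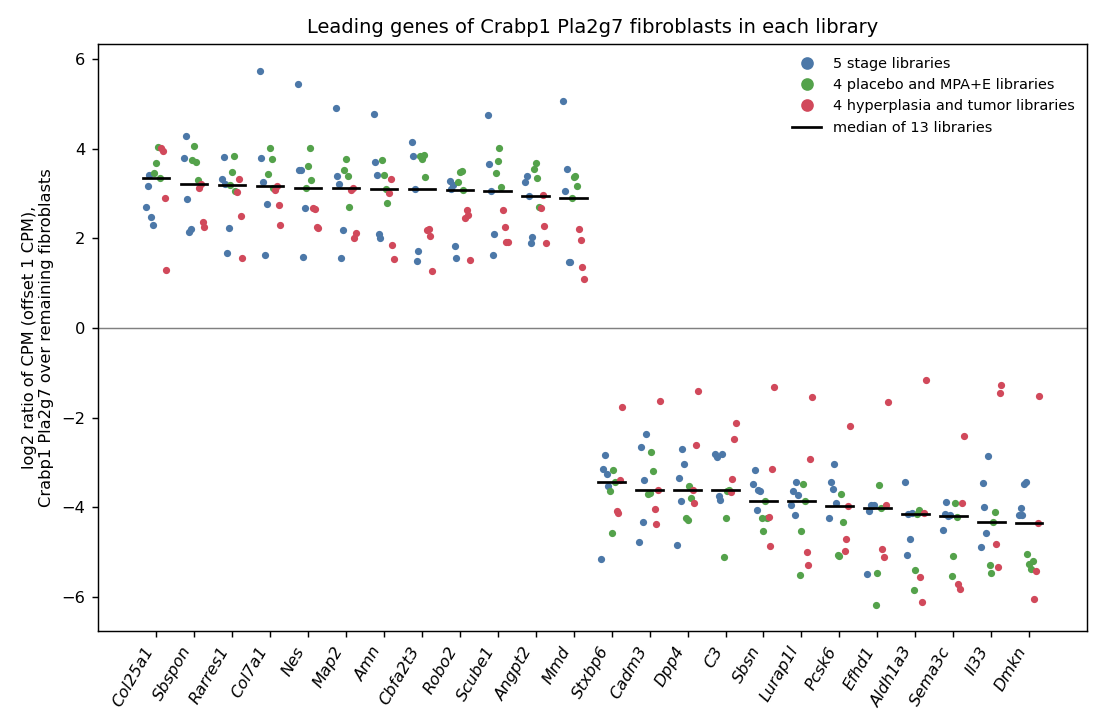
Log2 ratio of CPM (offset 1 CPM) between Crabp1 Pla2g7 and remaining fibroblasts for the 12 highest and 12 lowest called genes, with 1 point per library colored by experiment and the median as a line. Every point of the first 12 genes lies above 1 and every point of the last 12 below -1, and the tumor libraries hold many of the points nearest to 0.

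By role, the counts that follow stand beside 12.7% higher and 11.8% lower in all 13 libraries over all genes with at least 20 CPM, in the contrast the rule used. Of 12 retinoid genes 1 was higher and 1 lower, close to those shares, the latter being Aldh1a3, which makes retinoic acid. Among genes of nitric oxide signaling, both subunits of soluble guanylate cyclase, Gucy1a1 (log2 ratio 0.89 (0.04 to 1.91)) and Gucy1b1 (0.95 (0.29 to 1.59)), the cGMP phosphodiesterase Pde5a (2.01 (0.96 to 2.64)) and Ddah1 (1.18 (0.18 to 3.28)), which clears an inhibitor of nitric oxide synthase, were higher in all 13 libraries. Ddah2 was lower (-1.04 (-1.43 to -0.12)), so 4 of 7 genes of this list were higher and 1 lower in all 13. Enpp2, encoding the lysophosphatidic acid producing enzyme autotaxin, was at least 2 fold higher in every library (2.21 (1.17 to 3.33)). The prostaglandin synthases Ptgs1 (-1.54), Ptgs2 (-1.75) and Ptges (-1.02) were lower in all 13, among 2 higher and 4 lower of 10 lipid signaling genes. Wnt pathway genes higher in every library were Tcf7 (2.18), which stayed under 20 CPM, the feedback inhibitors Nkd1 (1.42) and Nkd2 (2.29), and the secreted modulators Sfrp1 (1.52) and Dkk3 (1.70). Sfrp4 was lower (-3.07). Of 12 Wnt genes with at least 20 CPM, 4 were higher and 1 lower in all 13. The estrogen receptor gene Esr1 (-1.5) and the progesterone receptor gene Pgr (-3.00) were lower in all 13 libraries. Hsd11b1, which regenerates active glucocorticoid, was higher (1.30), and the hormone receptor list had 1 of 7 genes higher and 6 lower. Of 26 growth factors and cytokines 5 were higher and 10 lower in all 13 (12.7% and 11.8% over all genes), with a median of -0.43. Hgf (1.27), the midkine gene Mdk (1.77) and the guidance cue Slit2 (2.37) were higher and Fgf10 (-1.20), Fgf7 (-1.51) and Il33 lower in every library. Of 15 genes on the basement membrane list 5 were higher, among them Col15a1 (1.56) and Col18a1 (1.66), and 2 lower, among them Col4a5 (-2.35).

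Levels of the selected cells through development are given without tests, since each stage is 1 library and puberty rests on 53 cells and 480325 UMIs. In the order puberty, adult, pregnancy, lactation and involution, Mgp, encoding the calcification inhibitor matrix Gla protein, measured 199.9, 589, 1739, 2285 and 10065 CPM. Mmp3 measured 45.8, 985, 1399, 2280.2 and 4616 CPM. Lox measured 110.3, 142, 376, 1186 and 1461 CPM. These genes were therefore lowest at puberty and highest in involution. Tnc measured 167, 44.5, 12.5, 4.82 and 8.58 CPM and was lowest in lactation. The myofibroblast gene Lrrc15 measured 248, 53.8, 209, 94.3 and 138 CPM, with the highest value at puberty and no single direction after it.

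The 8 genes with the highest ratio between stages included 5 with their highest level at puberty. Acta2, encoding smooth muscle actin, measured 679, 3.59, 252, 1.30 and 2.34 CPM in the same order of stages, 523 times as much at puberty as in lactation. In the remaining fibroblasts it measured 39.4, 18.4, 218, 2.10 and 2.46 CPM. Nrgn, encoding the calmodulin-binding protein neurogranin, measured 260.2, 82.8, 34.5, 0.927 and 8.43 CPM. The chemokine gene Ccl12 measured 112, 4.30, 12.1, 0 and 0.156 CPM, at least 202 times as much at puberty as in lactation against a floor of 3 UMIs. The DNA synthesis genes Pclaf (131, 0.359, 13.7, 3.15 and 0 CPM) and Hist1h2ap (125, 0.359, 37.0, 1.11 and 0.468 CPM) were highest at puberty too. Igfbp2, an insulin-like growth factor binding protein, measured 139, 58.1, 61.9, 1.85 and 532 CPM and was highest in involution, where the remaining fibroblasts had 126 CPM. The mitochondrial gene Chchd10 measured 2.08, 0, 15.7, 36.1 and 199 CPM, with the highest value in involution. The stanniocalcin gene Stc2 measured 2.08, 1.43, 40.6, 207 and 42.1 CPM, with the highest value in lactation. Wap, the milk whey acidic protein, measured 123 CPM in lactation against 241 CPM in the remaining fibroblasts of that library, at most 1.56 CPM in the selected cells of the other 4 stages, and rose beside the milk protein list named above. The part of free milk transcripts in it was not tested. When puberty was left out, a choice made after the values were seen, Igfbp2 led with a ratio of 287, and Acta2 followed with 194 (pregnancy over lactation). The selected pregnancy cells also held 45 UMIs of Krt14 and 43 of Cnn1, against at most 2 UMIs of either in any other stage. Their epithelial list summed to 32.9 CPM, against at most 2.34 CPM in the other stages. The part of epithelial transcripts in the Acta2 level was not tested.

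The hormone libraries asked which genes respond to MPA+E. In Crabp1 Pla2g7 fibroblasts 162 of 12582 genes (1.29%) rose and 58 (0.461%) fell (edgeR quasi-likelihood test, Benjamini-Hochberg adjusted p under 0.05). The median log2 fold change over all genes tested was 0.0206. The 220 calls became 111 and 141 when placebo 1 or 2 was left out, and 372 and 496 when MPA+E 1 or 2 was. They became 138 with thinned cells and 406 without a filter on low counts. Because the markers chose the cells anew in each library, a change of level and a change in which cells carried the markers cannot be told apart in this or any later comparison. The largest rise was in Greb1, an estrogen-responsive coactivator of the estrogen receptor, at 1.07 and 0.609 CPM under placebo and 31.2 and 32.2 CPM under MPA+E (log2 fold change 5.18 ± 0.26, adjusted p = 0.000588). Pgr, itself an estrogen target, measured 0.477 and 0.761 CPM under placebo and 6.82 and 8.85 CPM under MPA+E (3.69 ± 0.41, adjusted p = 0.00773). The placebo values rest on 9 and 4 UMIs for Greb1 and on 4 and 5 for Pgr, so the size of both rises is uncertain. Over the alternatives the log2 fold change of Greb1 ran from 4.90 to 8.30. Esr1 measured 27.0 and 20.1 CPM under placebo and 10.7 and 10.7 CPM under MPA+E (-1.13 ± 0.18, adjusted p = 0.0284; adjusted p = 0.175 without placebo 1). With thinned cells Esr1 changed by -0.64 (adjusted p = 0.686), and with at least 3 markers its adjusted p was 0.123. Both MPA+E libraries lay above both placebo libraries for Greb1 and Pgr and below them for Esr1. These were the 2 called higher and the 1 called lower of 10 hormone receptor and target genes tested. Greb1 also rose in the remaining fibroblasts, from 6.71 and 7.45 to 123 and 107 CPM, and the difference between the fold changes of the selected and remaining cells was 1.11 ± 0.35, adjusted p = 0.105.

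Of the 8 largest rises 4 were of Rsad2, Ifit3, Irf7 and Ifi44, each known to be induced by interferon. No list of interferon-induced genes had been fixed, and Ifitm1, also known to be induced by interferon, fell (-1.09 ± 0.15). Rsad2, encoding the antiviral protein viperin, measured 5.6 and 3.80 CPM under placebo and 136 and 154 CPM under MPA+E (log2 fold change 4.93 ± 0.22, adjusted p = 0.000588). Ifit3, whose product blocks viral RNA translation, measured 13.2 and 16.9 CPM under placebo and 153 and 149 CPM under MPA+E (3.33 ± 0.19, adjusted p = 0.000588). The interferon regulatory factor gene Irf7 measured 14.0 and 15.4 CPM under placebo and 161 and 133 CPM under MPA+E (3.32 ± 0.16, adjusted p = 0.000588). Ifi44 measured 3.34 and 3.65 CPM under placebo and 52.3 and 39.8 CPM under MPA+E (3.71 ± 0.20, adjusted p = 0.000588). All 4 genes were low in both placebo libraries and high in both MPA+E libraries, with no overlap, which was a condition for naming them. The rise of Rsad2 was larger than in the remaining fibroblasts, where it measured 50.1 and 44.0 CPM under placebo and 407 and 544 CPM under MPA+E (difference of log2 fold changes 1.56 ± 0.17, adjusted p = 0.000356). For Ifit3, Irf7 and Ifi44 the difference did not pass the threshold (adjusted p = 0.145, 0.241 and 0.547). Ifit3 shares sequence with its Ifit relatives, so its own level is uncertain.

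Many genes induced by interferon carry a known response element in their promoters, so 2 promoters are shown with the core of that element in capitals. The genes were picked by their rise, so the matches are a description of these promoters alone. A pair of GAAA motifs with any 2 bases between them, on either strand, was sought after the values had been seen in the 250 bases before the start of these 4 genes. Of mouse promoters, 978 of 32851 of that length (2.98%; RefSeq, GRCm38.p6) hold it. It occurs in the promoters of Ifit3 and Rsad2 and not in the same window of Irf7 and Ifi44, and a match says nothing of binding. The Ifit3 stretch lies at chr19:34583348-34583441 on the plus strand and holds 2 copies, the nearer 112 bases before the start. The Rsad2 stretch lies at chr12:26456538-26456597 on the minus strand with 1 copy 110 bases before the start. Both are printed 5′ to 3′ on the strand of the gene, so the capitals are the reverse complement of the motif sought.
Ifit3: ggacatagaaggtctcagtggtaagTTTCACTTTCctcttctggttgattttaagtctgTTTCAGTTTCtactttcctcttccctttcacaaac
Rsad2: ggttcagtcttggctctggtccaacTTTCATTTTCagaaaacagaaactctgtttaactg

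Another large rise was that of Nrk, a kinase gene, at 4.77 and 2.59 CPM under placebo and 57.6 and 46.3 CPM under MPA+E (3.78 ± 0.24, adjusted p = 0.000739; adjusted p = 0.0666 with at least 3 markers). Nexmif (3.70 ± 0.33 on the log2 scale) and Dbpht2 (3.59 ± 0.37) rose too. The largest fall was that of Pappa, the protease that frees insulin-like growth factor from its binding proteins, at 25.3 and 19.5 CPM under placebo and 1.99 and 2.21 CPM under MPA+E (-3.40 ± 0.22, adjusted p = 0.000739). Tgfbi, a secreted matrix adaptor, measured 84.5 and 70.6 CPM under placebo and 8.99 and 10.3 CPM under MPA+E (-3.00 ± 0.18, adjusted p = 0.000588). Tnc measured 197 and 156 CPM under placebo and 21.3 and 34.1 CPM under MPA+E (-2.65 ± 0.29, adjusted p = 0.0146). Both MPA+E libraries lay below both placebo libraries for these 3 genes. Pappa fell further in the selected than in the remaining fibroblasts (difference -1.72 ± 0.29, adjusted p = 0.00769). The difference for Tnc did not pass (-1.45 ± 0.40, adjusted p = 0.203). Apoe (-1.87 ± 0.20), the receptor genes Fgfr2 (-1.87 ± 0.25), Gfra2 (-1.75 ± 0.15) and Tnfrsf19 (-2.09 ± 0.18), and Igfbp2 (-2.34 ± 0.29; adjusted p = 0.0904 without placebo 1 and 0.0771 without placebo 2, and 0.0506 with thinned cells) fell as well.

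Of 31 interstitial matrix genes, 3 rose and 2 fell. This and the later list counts of the paragraph stand beside 1.29% of all genes tested that rose and 0.461% that fell. Eln, encoding elastin, measured 404 and 345 CPM under placebo and 1116 and 1181 CPM under MPA+E (1.62 ± 0.16, adjusted p = 0.00548). The rise was larger than in the remaining fibroblasts (difference 1.08 ± 0.16, adjusted p = 0.00933). Fbln1, encoding the elastic fiber protein fibulin-1, moved the other way, at 316 and 277 CPM under placebo and 92.1 and 105 CPM under MPA+E (-1.58 ± 0.16, adjusted p = 0.006; difference -1.15 ± 0.11, adjusted p = 0.000173). Col12a1 measured 66.8 and 65.7 CPM under placebo and 139.8 and 119 CPM under MPA+E (0.96 ± 0.13, adjusted p = 0.0162). Its call was lost without placebo 1 (adjusted p = 0.175) or placebo 2 (0.106), and that of Ogn (1.53 ± 0.22) without placebo 2 (0.0887). Of 16 collagen-modifying genes P4ha3, a prolyl hydroxylase subunit, rose alone, at 7.63 and 8.06 CPM under placebo and 49.1 and 39.6 CPM under MPA+E (2.49 ± 0.17, adjusted p = 0.000901). Of 22 proteases and inhibitors none passed. The soluble guanylate cyclase subunit Gucy1a1 measured 15.5 and 17.3 CPM under placebo and 85.0 and 63.1 CPM under MPA+E (2.16 ± 0.18, adjusted p = 0.00214). The remaining fibroblasts had 15.0 and 13.6 CPM under placebo and 24.3 and 19.8 CPM under MPA+E (difference 1.5 ± 0.13, adjusted p = 0.000116). Gucy1a1 was thus higher in the 2 MPA+E libraries in both kinds of cells, and by more in the selected ones. Among 9 genes of this pathway, Gucy1b1 (0.95 ± 0.15) and Prkg1 (-1.33 ± 0.20) were called as well. Gucy1b1 was not called without placebo 1 (0.266) or placebo 2 (0.115) or Prkg1 without placebo 1 (0.115). Neither was called with thinned cells (adjusted p = 0.0782 and 0.184), and Prkg1 not with at least 3 markers (0.101).

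Of 19 Wnt pathway genes 7 fell and 0 rose (edgeR, adjusted p under 0.05), against 0.461% and 1.29% of all genes tested. At an unadjusted p under 0.05, 11 of 19 passed. The median log2 fold change of the list was -0.46, against 0.0206 over all genes. Nkd1 measured 49.6 and 35.1 CPM under placebo and 12.4 and 13 CPM under MPA+E (-1.74 ± 0.19, adjusted p = 0.00733). Nkd2 measured 68.7 and 57.7 CPM under placebo and 27.8 and 25 CPM under MPA+E (-1.26 ± 0.14, adjusted p = 0.00773). Apcdd1, another membrane inhibitor of Wnt signaling, measured 35.5 and 29.2 CPM under placebo and 12.5 and 13 CPM under MPA+E (-1.34 ± 0.16, adjusted p = 0.0103). In contrast, the remaining fibroblasts had 35.6 and 26.3 CPM under placebo and 35.4 and 37.8 CPM under MPA+E (difference -1.63 ± 0.13, adjusted p = 3.65e-05). All 3 were lower in both MPA+E libraries than in both placebo libraries, and their calls held without any 1 library. The calls of Wnt2, Wnt4, Wnt9a and Tcf7 did not: without placebo 1 the adjusted p was 0.254, 0.244, 0.246 and 0.117. Those of Wnt2, Wnt4 and Wnt9a were also lost without placebo 2 (0.0978, 0.106 and 0.0545) and with thinned cells (0.34, 0.155 and 0.114). Wnt4 and Wnt9a were not called by limma-voom (adjusted p = 0.0584 and 0.0555), nor Wnt2 and Wnt9a with at least 3 markers (0.0786 and 0.0571).

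Progenitor genes, low in the selected cells, rose in part under MPA+E. Ly6a, encoding the surface antigen Sca-1, measured 108 and 96.8 CPM under placebo and 691 and 558 CPM under MPA+E (2.60 ± 0.15, adjusted p = 0.000588). It measured 1953 and 1695 CPM under placebo and 3652 and 3621 CPM under MPA+E in the remaining fibroblasts (difference 1.56 ± 0.11, adjusted p = 1.69e-05). Ly6c1 measured 22.9 and 25.9 CPM under placebo and 154 and 149.9 CPM under MPA+E (2.63 ± 0.16, adjusted p = 0.000588; difference 1.84 ± 0.13, adjusted p = 1.69e-05). With Anxa3 (1.53 ± 0.17), 3 of 8 progenitor genes rose and 0 fell. Over all genes tested 1.29% rose and 0.461% fell, and the list counts here are read against these shares. Ly6a and Ly6c1 belong to a family of near copies, so their separate levels are uncertain. Of the 20 markers named by the study, chosen from the same samples, 0 rose and 2 fell. The membrane metalloprotease gene Mme measured 732 and 774 CPM under placebo and 310.3 and 322 CPM under MPA+E (-1.26 ± 0.16, adjusted p = 0.0112; difference -0.96 ± 0.12, adjusted p = 0.000855). The other was Ifitm1 (-1.09 ± 0.15; adjusted p = 0.0804 without placebo 2). Of 16 retinoid genes 0 passed (6 at an unadjusted p under 0.05), and 0 of 8 cell cycle genes and 0 of 10 immediate early genes passed.

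**Figure D4:**
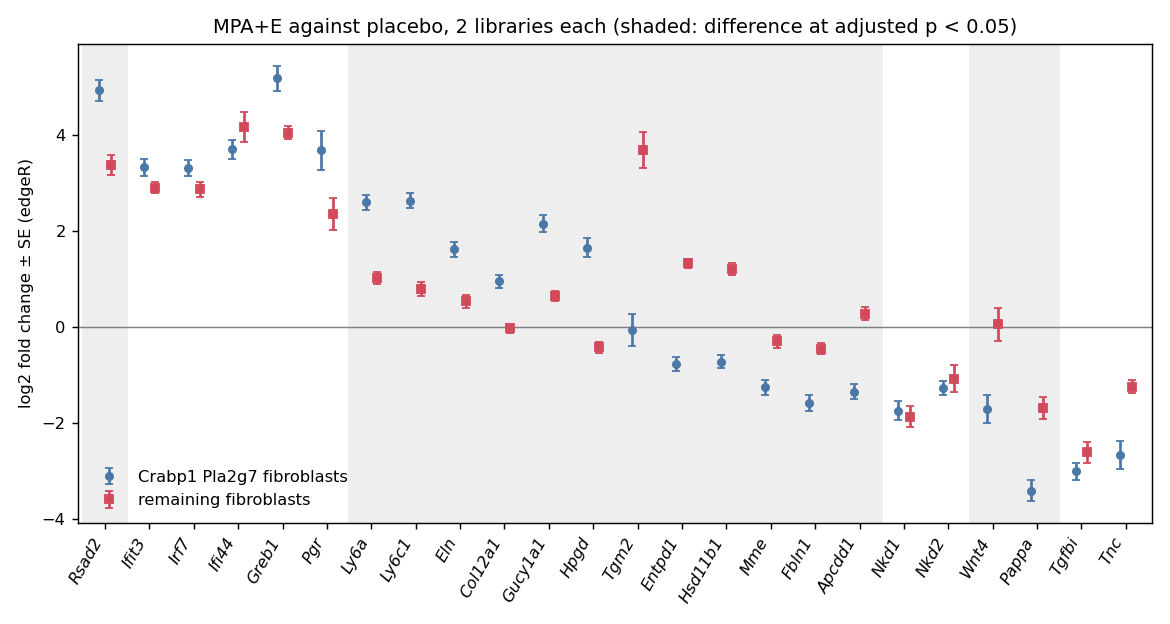
Log2 fold change ± approximate SE of MPA+E against placebo (2 libraries each, edgeR). Circles are Crabp1 Pla2g7 fibroblasts and squares the remaining fibroblasts. Genes are shaded where the difference between the 2 kinds of cells passed an adjusted p of 0.05. Rsad2, Ifit3, Irf7, Ifi44, Greb1 and Pgr lie above 2 in both, Gucy1a1, Ly6a and Ly6c1 lie higher in the selected cells, and Tgm2, Entpd1 and Hsd11b1 lie above 0 in the remaining fibroblasts alone.

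The response to MPA+E differed between selected and remaining fibroblasts for 683 of 15175 genes (4.5%; edgeR, interaction of cell class and treatment with the library as a block). It did so for 449 genes without placebo 1 and for 1159 without MPA+E 1. Tgm2, encoding the crosslinking enzyme transglutaminase 2 (chr2:158116402-158146436, minus strand, GRCm38), measured 55.8 and 72.1 CPM under placebo and 46.2 and 75.6 CPM under MPA+E in the selected cells. In the remaining ones it measured 17.4 and 26.3 CPM under placebo and 216 and 335 CPM under MPA+E (difference of log2 fold changes -3.79 ± 0.12, adjusted p = 2.54e-08). The selected cells overlapped between treatments, and the remaining ones did not. Entpd1, the ATP-hydrolyzing enzyme CD39, measured 155 and 160.2 CPM under placebo and 92.6 and 92.7 CPM under MPA+E in the selected cells. The remaining fibroblasts had 22.0 and 20.9 CPM under placebo and 52.8 and 52.3 CPM under MPA+E (difference -2.10 ± 0.10, adjusted p = 9.72e-07). Hsd11b1 measured 487 and 473 CPM under placebo and 295 and 290.5 CPM under MPA+E in the selected cells. In the remaining ones it measured 93.6 and 101 CPM under placebo and 222 and 219 CPM under MPA+E (difference -1.93 ± 0.10, adjusted p = 2.69e-06). For both genes the 2 kinds of cells lay closer together under MPA+E than under placebo. The neurotrophin receptor gene Ntrk2 (difference -1.89 ± 0.12, adjusted p = 7.47e-06) and Fxyd5 (-1.83 ± 0.10, adjusted p = 4.22e-06) followed in this direction. In the other direction Efhd1 measured 0.835 and 1.83 CPM under placebo and 6.20 and 5.26 CPM under MPA+E in the selected cells. The remaining ones had 131 and 125 CPM under placebo and 80.2 and 101 CPM under MPA+E (difference 2.62 ± 0.34, adjusted p = 0.004), so it was higher under MPA+E in the former and lower in the latter.

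The tumor libraries were compared with hyperplasia of the same mice. In Crabp1 Pla2g7 fibroblasts 2534 of 13673 genes (18.5%) were higher and 2559 (18.7%) lower in tumors (limma-voom, adjusted p under 0.05), so a call by itself was common. The median log2 fold change over all genes tested was -0.00111. Leaving out hyperplasia 1 lowered the 5093 calls to 769, hyperplasia 2 to 1737 and tumor 2 to 2533, while without tumor 1 there were 5217. With thinned cells there were 2006. Smooth muscle genes made up part of the largest rises. Tagln, encoding transgelin, measured 2.09 and 1.98 CPM in hyperplasia and 988 and 1487 CPM in tumors (log2 fold change 9.08 ± 1.08, adjusted p = 0.00249). Acta2 measured 0.298 and 1.16 CPM in hyperplasia and 552 and 933 CPM in tumors (10.01 ± 2.41, adjusted p = 0.0176; adjusted p = 0.0961 without hyperplasia 1 and 0.126 without hyperplasia 2). Both tumors lay far above both hyperplastic glands for these genes. Of 9 myofibroblast genes 8 rose and 0 fell, with a median of 4.07. They included the contractile genes Myl9 (3.22 ± 0.42) and Tpm2 (4.06 ± 0.48). In tumors the myofibroblast list summed to 4014 and 4193 CPM in the selected cells and to 1470 and 2744 CPM in the remaining ones. Pla2g7 was detected in 45.3% and 47.5% of these selected cells, so most had no UMI of a gene that they are named for. The same held at puberty, pregnancy, lactation and involution (21.0% to 34.0%). Lrrc15 measured 11.2 and 8.60 CPM in hyperplasia and 626 and 617 CPM in tumors (5.86 ± 0.47, adjusted p = 0.000983). Cdkn2a, whose products arrest the cell cycle, measured 8.83 and 8.27 CPM in hyperplasia and 276 and 109.5 CPM in tumors (4.21 ± 0.45, adjusted p = 0.00176). In the remaining fibroblasts Tagln changed by 7.28 ± 0.59, adjusted p = 0.00344 and Cdkn2a by 4.71 ± 0.25, adjusted p = 0.00125. The difference between the 2 kinds of cells did not pass for either (1.81 ± 0.98, adjusted p = 0.528 and -0.46 ± 1.90, adjusted p = 0.957). Of 4 pericyte genes tested 3 rose. Mcam measured 0.835 and 0.606 CPM in hyperplasia and 8.33 and 9.16 CPM in tumors (3.45 ± 0.33, adjusted p = 0.00148). The others were Notch3 (1.39 ± 0.26; adjusted p = 0.0807 without hyperplasia 1 and 0.0647 without hyperplasia 2) and Cspg4 (1.92 ± 0.44; 0.092 and 0.0855). The pericyte list summed to 4.21 to 65.2 CPM over all libraries, and cells with a UMI of the pericyte gene Rgs5 had been left out. The part of pericyte transcripts in the rise of smooth muscle genes was not tested.

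Of 31 interstitial matrix genes 23 rose and 0 fell in tumors, where 18.5% of all genes tested rose and 18.7% fell, and the other 8 did not pass. The median log2 fold change of the list was 1.43. The fibrillar collagen gene Col1a1 measured 3459 and 2538 CPM in hyperplasia and 11318 and 14820.2 CPM in tumors (2.00 ± 0.24, adjusted p = 0.00248). Col3a1, another, measured 5110.1 and 3866 CPM in hyperplasia and 12291 and 13829 CPM in tumors (1.43 ± 0.22, adjusted p = 0.00486). Col8a1, a short-chain collagen, measured 2.86 and 1.05 CPM in hyperplasia and 989.7 and 1029 CPM in tumors (9.06 ± 0.44, adjusted p = 0.000414). The fibril-associated Col12a1 measured 68.4 and 49.0 CPM in hyperplasia and 2405 and 1459.8 CPM in tumors (4.89 ± 0.36, adjusted p = 0.000789). All 4 genes were higher in both tumors than in both hyperplastic glands. Mgp measured 689 and 683 CPM in hyperplasia and 7849 and 7015 CPM in tumors (3.31 ± 0.44, adjusted p = 0.00342). Eln measured 76.6 and 119 CPM in hyperplasia and 677 and 609.6 CPM in tumors (2.63 ± 0.24, adjusted p = 0.00133). The microfibril gene Fbn1 (difference from the remaining fibroblasts 2.05 ± 0.26, adjusted p = 0.0372) and the proteoglycan gene Aspn (2.13 ± 0.24, adjusted p = 0.0286) rose more in the selected cells, in which both had been lower. No difference between selected and remaining cells held without hyperplasia 2, where 0 genes passed. Postn measured 3177 and 1759 CPM in hyperplasia and 4571 and 5669 CPM in tumors (0.99 ± 0.29, adjusted p = 0.0326). It lost its call without hyperplasia 2 (adjusted p = 0.171) or tumor 2 (0.127) and by edgeR (0.0549). Among the genes with the largest rises, Ltbp2, a latent transforming growth factor beta binding protein, measured 0.418 and 0.110 CPM in hyperplasia and 379 and 152 CPM in tumors (9.82 ± 1.08, adjusted p = 0.00193). The cartilage collagen gene Col11a1 measured 0.0597 and 0.441 CPM in hyperplasia and 229 and 126 CPM in tumors (9.53 ± 1.30, adjusted p = 0.00359). Spp1, encoding osteopontin, measured 1.61 and 0.110 CPM in hyperplasia and 181 and 971 CPM in tumors (9.73 ± 1.73, adjusted p = 0.0072; adjusted p = 0.0884 without hyperplasia 1).

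Among enzymes that finish and cut the matrix, 9 of 16 collagen-modifying genes rose and 1 fell, while 5 of 23 proteases and inhibitors rose and 4 fell, shares close to those of all genes tested (18.5% and 18.7%). The lysyl oxidase relatives Loxl1 (1.77 ± 0.18) and Loxl3 (2.18 ± 0.23) and P4ha3 (4.05 ± 0.41) rose. The protease inhibitor gene Timp1 measured 55.4 and 76.4 CPM in hyperplasia and 884 and 2129 CPM in tumors (4.28 ± 0.47, adjusted p = 0.00191). Serpine2, another, measured 51.1 and 41.5 CPM in hyperplasia and 1151 and 1509.8 CPM in tumors (4.72 ± 0.38, adjusted p = 0.000983). Mmp13, the interstitial collagenase, had 0 UMIs in both hyperplasia libraries and 18.1 and 25.2 CPM in tumors (adjusted p = 0.00133), so no fold change is given. Adamts1, which cuts proteoglycans, measured 1762 and 1560.3 CPM in hyperplasia and 488 and 346 CPM in tumors (-2.14 ± 0.34, adjusted p = 0.00518). Proteases thus did not move in 1 direction.

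Many markers of these cells were lower in tumors. Of the 20 markers named by the study 10 fell and 0 rose, with a median of -1.56. The study chose these markers from the same samples, so the count is a description. It stands, like the other list counts here, beside 18.7% of all genes tested that fell and 18.5% that rose. Enpp2 measured 1234 and 1112 CPM in hyperplasia and 182 and 33.3 CPM in tumors (-4.04 ± 0.68, adjusted p = 0.0062; adjusted p = 0.052 without hyperplasia 1). Mme measured 561 and 516 CPM in hyperplasia and 97.7 and 71.4 CPM in tumors (-2.81 ± 0.28, adjusted p = 0.00149). The preadipocyte list had 5 of 7 genes lower and 1 higher. The lipoprotein lipase gene Lpl measured 1429 and 1363 CPM in hyperplasia and 491 and 288 CPM in tumors (-2.02 ± 0.27, adjusted p = 0.0035). Pparg, the regulator of fat cell differentiation, fell as well (-1.90 ± 0.22). Both tumors were below both hyperplastic glands for each of these genes. Of 10 hormone receptor genes 6 fell and 0 rose, against 18.7% and 18.5% of all genes tested. Esr1 measured 22.8 and 20.7 CPM in hyperplasia and 9.18 and 10.1 CPM in tumors (-1.29 ± 0.18, adjusted p = 0.00369). The mineralocorticoid receptor gene Nr3c2 changed by -2.42 ± 0.29 (adjusted p = 0.0871 with thinned cells). Of 10 immediate early genes 8 fell, but the calls of Fos (-1.44 ± 0.28), Egr1 (-1.86 ± 0.47) and Jun (-1.05 ± 0.25) were lost without hyperplasia 1 (adjusted p = 0.0625, 0.113 and 0.0828) or hyperplasia 2 (0.0562, 0.0698 and 0.0874). Egr1 and Jun were not called without tumor 2 either (0.1 and 0.067).

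Nitric oxide and retinoid genes moved in both directions. Ddah1 measured 2.21 and 3.80 CPM in hyperplasia and 242 and 196 CPM in tumors (6.08 ± 0.33, adjusted p = 0.000443). Ass1, which supplies arginine, measured 6.86 and 6.62 CPM in hyperplasia and 132 and 101 CPM in tumors (3.97 ± 0.22, adjusted p = 0.000443). Gucy1a1 measured 43.3 and 55.1 CPM in hyperplasia and 11.1 and 10.6 CPM in tumors (-2.29 ± 0.22, adjusted p = 0.00143). In all, 3 of 10 genes of this pathway rose and 3 fell, against 18.5% and 18.7% of all genes tested. The retinaldehyde dehydrogenase gene Aldh1a2 had 0 and 2 UMIs in hyperplasia and measured 23.5 and 15.8 CPM in tumors (adjusted p = 0.00276). Its relative Aldh1a1 fell (-2.16 ± 0.71), with an adjusted p of 0.0501 when the mouse was a block. Rdh10 (1.26 ± 0.24) and Aldh1a3 (1.98 ± 0.36) rose, and the retinoic acid receptor gene Rarb (-1.30 ± 0.28) and Rarres2 (-1.60 ± 0.51) fell. In all, 4 of 18 retinoid genes rose and 3 fell, shares close to those of all genes tested (Rarres2 with an adjusted p of 0.0582 in the block). Of these, Rdh10 and Aldh1a3 lost their call without hyperplasia 1 (adjusted p = 0.0706 and 0.0732) or hyperplasia 2 (0.0621 and 0.0611). The 3 that fell lost it without hyperplasia 2 or tumor 2, the former giving 0.0868 for Rarb, 0.173 for Aldh1a1 and 0.153 for Rarres2. Aldh1a1 (0.152) and Rarres2 (0.148) lost it without hyperplasia 1 too. Both also lost it by edgeR (0.11 and 0.0619) and with doublets removed (0.0502 and 0.064), and Aldh1a1 by DESeq2 (0.289). Rarb was not called with thinned cells (0.264) or Aldh1a3 with at least 3 markers (0.0558).

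Of 33 growth factors and cytokines 14 rose and 6 fell, against 18.5% and 18.7% of all genes tested, so the share that fell was close to that of all genes. Inhba, the activin A subunit, measured 7.99 and 7.66 CPM in hyperplasia and 163 and 173 CPM in tumors (4.29 ± 0.26, adjusted p = 0.000458). Tgfb1 measured 32.3 and 30.3 CPM in hyperplasia and 114 and 112 CPM in tumors (1.73 ± 0.17, adjusted p = 0.00149). Il33 measured 2.45 and 3.47 CPM in hyperplasia and 128 and 148 CPM in tumors (5.42 ± 0.27, adjusted p = 0.000414). The bone morphogenetic protein gene Bmp4 measured 94.3 and 133 CPM in hyperplasia and 10.5 and 4.14 CPM in tumors (-4.28 ± 0.41, adjusted p = 0.00143). Bmp2 (-3.00 ± 0.30) and the epithelial growth factor gene Fgf10 (-2.95 ± 0.55; adjusted p = 0.0641 without hyperplasia 1) fell too. Of 20 Wnt genes 7 rose, among them Wnt9a (2.22 ± 0.23), and 3 fell. Wnt4 measured 44.3 and 47.7 CPM in hyperplasia and 9.67 and 4.39 CPM in tumors (-2.99 ± 0.34, adjusted p = 0.0022). Tumors lay on 1 side of hyperplasia in each of these genes. The genes were named after their call, so this agreement of the 2 mice, of 45 and 17 weeks, is no separate evidence. The cell cycle genes Mki67 (6.35 ± 1.74) and Top2a (6.30 ± 1.93) were called among 8. They were not called without hyperplasia 1 (adjusted p = 0.164 and 0.195) or hyperplasia 2 (0.127 and 0.165), nor was Top2a with at least 3 markers (0.148) or with doublets removed (0.0685).

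**Figure D5:**
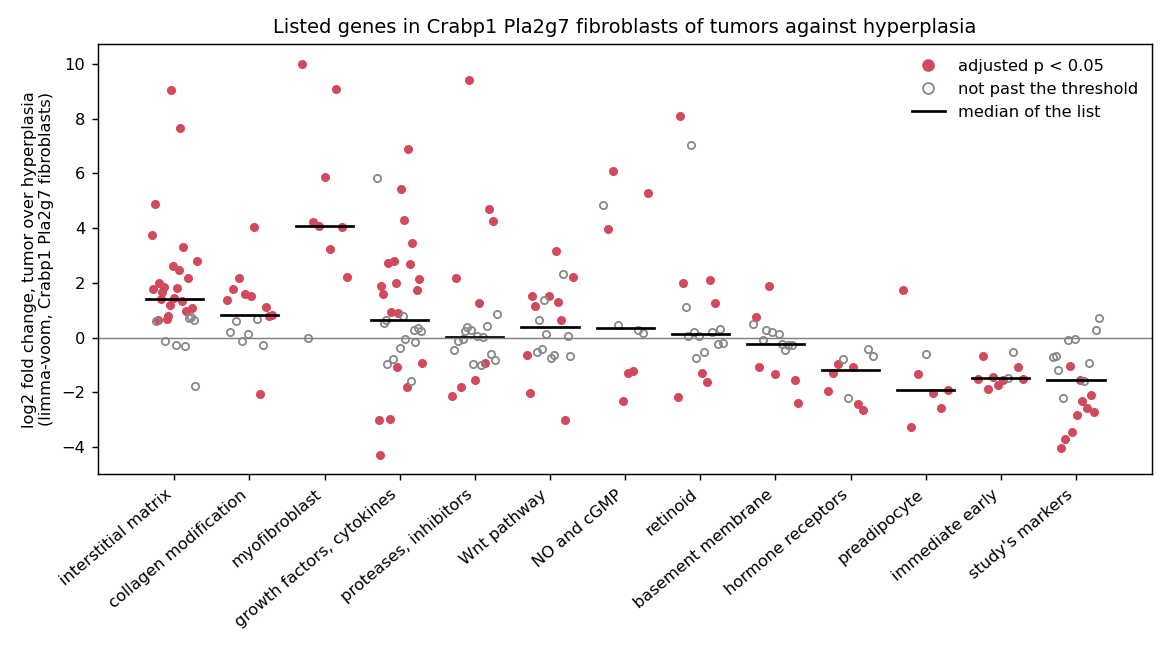
Log2 fold change of tumors against hyperplasia in Crabp1 Pla2g7 fibroblasts (limma-voom, 2 libraries each) for the genes of 13 lists, filled where the adjusted p was under 0.05, with the median of each list as a line. The interstitial matrix (median 1.43) and myofibroblast (4.07) lists lie above 0, and the hormone receptor, preadipocyte, immediate early and study's marker lists below it.

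Further large differences came from genes of blood and of body position. The hemoglobin genes Hbb-bs and Hba-a1 had 0 or 1 UMI in each hyperplasia library and measured 119 and 71.6 CPM and 45.2 and 32.1 CPM in tumors. The remaining fibroblasts of the tumors held 75.3 and 12.6 CPM of Hbb-bs, and the part of red cell transcripts in these values was not tested. Hoxc10, a homeobox gene expressed by position along the body axis, measured 26.7 and 43.2 CPM in hyperplasia and had 0 and 2 UMIs in tumors (adjusted p = 0.0017). Its level in the selected cells of the 9 wild-type libraries was 18.0 to 45.6 CPM. The remaining fibroblasts showed the same split, with 25.5 and 37.2 CPM in hyperplasia and 0.0116 and 0.141 CPM in tumors. Cpe, Cnmd, Zbtb16, Aox3, Tchh and Spock2 fell by 5.27, 5.24, 4.92, 4.54, 4.44 and 4.38 on the log2 scale (Aox3 with an adjusted p of 0.0633 by DESeq2).

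The difference between tumor and hyperplasia itself differed between selected and remaining fibroblasts for 52 of 15563 genes (0.334%; limma-voom, interaction with the library as a block; 1886 genes at an unadjusted p under 0.05). That number was 1 without hyperplasia 1, 0 without hyperplasia 2, 111 without tumor 1 and 4 without tumor 2. By edgeR it was 757. Mgll, the monoacylglycerol lipase gene (chr6:88724412-88828360, plus strand, GRCm38), measured 1.67 and 2.09 CPM in hyperplasia and 158 and 80.9 CPM in tumors in the selected cells. In the remaining fibroblasts it measured 65.3 and 96.0 CPM in hyperplasia and 101 and 54.3 CPM in tumors (difference 5.88 ± 0.30, adjusted p = 0.000904). Its level in the selected cells was 0.835 to 12.9 CPM in the other 11 libraries, so it stood out in the tumors. Fndc1, a lobular fibroblast gene, measured 29.2 and 29.3 CPM in hyperplasia and 214 and 110.3 CPM in tumors in the selected cells. The remaining ones had 759 and 725 CPM in hyperplasia and 413 and 188 CPM in tumors (difference 3.68 ± 0.24, adjusted p = 0.00277), so it was higher in tumors in the former and lower in the latter. For Il33 the difference was 4.02 ± 0.46, adjusted p = 0.0286, with 97.0 and 178 CPM in hyperplasia and 352 and 361 CPM in tumors in the remaining fibroblasts. Without hyperplasia 2 the adjusted p of Mgll was 0.0786. Of the 10 largest differences 1 kept its call without hyperplasia 1, 0 without hyperplasia 2, 10 without tumor 1 and 2 without tumor 2.

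Hyperplasia was compared with normal tissue in the same fit and with the same hyperplasia libraries. In the selected cells 69 of 13673 genes (0.505%) were higher and 56 (0.41%) lower in hyperplasia (limma-voom, adjusted p under 0.05). The 125 calls became 1 without puberty, 115 without the adult and 0 without either hyperplasia library. The number was 407 by edgeR, 1469 by DESeq2, 714 without a filter on low counts and 565 with thinned cells. The transcription factor gene Cebpb measured 54.1 CPM at puberty, 87.9 CPM in the adult and 1864 and 1708 CPM in hyperplasia (log2 fold change 4.78 ± 0.29, adjusted p = 0.0047). The placebo libraries, outside this comparison and also wild type, overlapped hyperplasia in Cebpb, at 964 and 1772 CPM, and lactation and involution had 719 and 1047 CPM. Ddah1 measured 79.1 CPM at puberty, 43.0 CPM in the adult and 2.21 and 3.80 CPM in hyperplasia (-3.85 ± 0.37, adjusted p = 0.0145). Lox measured 110.3 CPM at puberty, 142 CPM in the adult and 615 and 611 CPM in hyperplasia (2.49 ± 0.24, adjusted p = 0.0151), and in lactation and involution 1186 and 1461 CPM. Its relative Loxl1 measured 837 CPM at puberty, 817 CPM in the adult and 205 and 211 CPM in hyperplasia (-1.69 ± 0.18, adjusted p = 0.0193). The chemokine gene Ccl2 (3.21 ± 0.51) and the protease gene Adamts1 (2.44 ± 0.35) were higher in hyperplasia and Eln (-1.56 ± 0.25) lower. The hyperplasia and normal libraries did not overlap in these genes. Ccl2 measured 350.1 and 189.7 CPM in hyperplasia and 271 and 372 CPM under placebo, which overlapped. Ifi202b, C1rb, Pianp and Gdpd3 had at most 1 UMI in each normal library and measured 137, 65.4, 34.3 and 65.4 CPM in hyperplasia 1. Ifi202b and C1rb have near-identical relatives. Hopx, Gdf15 and Jaml were higher by 4.73, 4.61 and 4.42 on the log2 scale. At puberty and in the adult they had 0 and 5, 0 and 4, and 1 and 2 UMIs, so the size of these changes is uncertain. Tnfrsf18, Hsd11b2, Meg3, Ccn4, Ttyh2, Nxn and Plagl1 fell by 5.21, 4.88, 3.20, 3.18, 2.88, 2.81 and 2.76. None of these calls was stable. Without hyperplasia 1 or hyperplasia 2 none of 26 genes examined kept its call (Cebpb adjusted p = 0.101 and 0.0814), 1 kept it without puberty, whose sum rests on 53 cells, and 11 without the adult. Tissue, strain, sort and age cannot be told apart here. By the test used, no gene differed in its response between selected and remaining fibroblasts (0 of 15563, 0% by limma-voom; 2312 at an unadjusted p under 0.05; 17 by edgeR; 4024 without a filter on low counts; 137 without the adult).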

How the data were processed

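The data are 13 single-cell libraries, which per the labels were made with a 10x Genomics 3′ kit. In the deposited files, values are raw UMI counts for each gene in each barcode, which the authors made with Cell Ranger 6.1.2 on mm10 per the submitters' processing notes and left without normalization; each lists 32285 genes. Genes that share sequence (Ifit3, Ly6a, Ly6c1, Ifi202b, C1rb) may exchange counts. GENCODE M21 (GRCm38) gave gene positions. Samples were grouped by the labels.

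Cells were chosen by the limits given above, with markers, gene lists and tests chosen while earlier results of these data were known. Lists hold 4 to 33 genes. Counts were summed over the selected cells, and over the remaining fibroblasts, of each library, since cells are not replicates. MPA+E was compared with placebo by edgeR 4.0.16 (quasi-likelihood, TMM scaling, filterByExpr), and tumor and hyperplasia by limma-voom (limma 3.58.1) in 1 fit with puberty and adult joined as normal, after the study's methods. The 16 genes that the rule reads were left out. Differences between the 2 kinds of cells were tested as an interaction with the library as a block. Calls are at a Benjamini-Hochberg adjusted p under 0.05, and CPM are counts per 1000000 summed UMIs. The ± after a log2 fold change is an SE. For edgeR it is approximate, being the absolute log2 fold change over the square root of the F statistic of the test. Selected and remaining cells were set side by side as log2 ratios of CPM (offset 1 CPM), and a gene was called at 2 fold or more in the same direction in all 13 libraries with at least 20 CPM.

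Named genes were the 8 largest changes each way past the threshold with at least 20 CPM in 1 group and no overlap, the 5 largest interactions each way, the 12 highest and lowest log2 ratios, the 8 highest ratios between stages with at least 100 CPM, and members of the lists. The largest changes had to show no overlap, and listed genes were described after their call. Separation of the libraries in a named gene is therefore no separate evidence. Shares were compared by exact permutation tests. Thinning to 3000 UMIs left out 3.08% to 26.1% of the fibroblasts per library. Doublets were scored with Scrublet (scanpy 1.11.5) and removed in an alternative only, at 0.8% per 1000 barcodes. The edgeR and limma scripts were tested on simulated data. Hyperplasia and tumor libraries of the same number come from the same mouse per the labels; their deviations from the group means correlated at 0.129 over 13408 genes in 2 pairs. The labels name no separate cultures or litters, so p-values measure the spread between these libraries, which may be technical. Intervals cover counting error only. Each fit was repeated with other tools, filters, marker numbers and left-out libraries. The fits within the selected cells were repeated with thinned cells too, and the interactions were not. Cell annotations of the study were not used here, and some listed genes are not reported here.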

Additional observations from a re-analysis of the deposited data

Results flagged for a closer look

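The response to MPA+E in Crabp1 Pla2g7 fibroblasts differed from that in the remaining fibroblasts by a tested interaction (edgeR, library as a block) for the 10 genes with the largest differences. Expressed as the difference of log2 fold changes, selected minus remaining cells, 5 were positive: Sema3d 3.49, H2-Q6 2.84, Efhd1 2.62, Akr1c18 2.61 and Arhgef28 2.38. Sema3d, a semaphorin guidance gene, measured 0.716 and 0.456 CPM under placebo and 5.63 and 2.80 CPM under MPA+E in the selected cells and 57.7 and 56.3 CPM under placebo and 33.8 and 33.5 CPM under MPA+E in the remaining ones, so it rose from a low level in 1 kind of cell and fell in the other. H2-Q6, a class Ib histocompatibility gene with near-identical relatives, measured 0.119 and 0.609 CPM under placebo and 13.9 and 17.4 CPM under MPA+E against 9.18 and 8.22 CPM under placebo and 49.2 and 60.7 CPM under MPA+E. Akr1c18, which inactivates progesterone, measured 0.954 and 3.20 CPM under placebo and 5.97 and 8.80 CPM under MPA+E against 168 and 159 CPM under placebo and 74.5 and 123 CPM under MPA+E. Arhgef28 stood at under 2 CPM in all 4 sums of the selected cells. The 5 negative differences were Tgm2 -3.79, Entpd1 -2.10, Hsd11b1 -1.93, Ntrk2 -1.89 and Fxyd5 -1.83. Ntrk2 measured 85.6 and 71.8 CPM under placebo and 28.7 and 32.8 CPM under MPA+E in the selected cells and 147 and 146 CPM under placebo and 194 and 219 CPM under MPA+E in the remaining ones. The cause of these differences was not tested. Of the 10 calls 6 held in every alternative. Sema3d lost its call without placebo 1 (adjusted p = 0.0957) and with doublets removed (0.251). Arhgef28 lost it without placebo 1 (0.12), by limma-voom (0.0972), with at least 3 markers (0.158) and with doublets removed (0.085). H2-Q6 lost it with doublets removed (0.0506) and with at least 3 markers (0.0609), and Akr1c18 with at least 3 markers (0.559).

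The difference between tumor and hyperplasia differed between the same kinds of cells (limma-voom interaction) for 10 genes of the same rank. Positive differences were Mgll 5.88, Ecscr 5.54, Tmeff1 5.43, Bmp7 4.21 and Sema3d 4.10. Ecscr, an endothelial surface gene by name, measured 0.239 and 1.10 CPM in hyperplasia and 25.1 and 39.7 CPM in tumors in the selected cells and 28.8 and 58.6 CPM in hyperplasia and 26.3 and 62.2 CPM in tumors in the remaining ones, and the tumor levels of the selected cells came close to those of the remaining cells. Tmeff1 (0.597 and 0.441 CPM in hyperplasia and 10.9 and 12 CPM in tumors) and Bmp7 (4.35 and 6.28 CPM in hyperplasia and 22.6 and 19.8 CPM in tumors) were likewise low in the selected cells of hyperplasia. Negative differences were Ereg -3.31, Serpina3g -2.69, Sbspon -2.50, Gfra2 -2.43 and Gria1 -2.38. Sbspon, among the leading genes of the selected cells, measured 11.6 and 12.1 CPM in hyperplasia and 139 and 79.0 CPM in tumors there and 0.453 and 0.424 CPM in hyperplasia and 26.3 and 15.8 CPM in tumors in the remaining fibroblasts, so both rose and the remaining cells by more. Ereg, encoding the growth factor epiregulin, measured 4.18 and 8.54 CPM in hyperplasia and 23.9 and 96.4 CPM in tumors and 0.302 and 0.682 CPM in hyperplasia and 16.4 and 71.4 CPM in tumors. None of these 10 calls held in every alternative: without hyperplasia 2 their adjusted p was 0.0786 to 0.507, without hyperplasia 1 0.0435 to 0.311 and without tumor 2 0.0088 to 0.170, while all 10 held without tumor 1.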

How the results depend on the processing

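Among the tested genes named here, none changed its direction under the alternatives run. Thinning changed the order of the single-library shares: adult, pregnancy and lactation, at 4.94%, 3.97% and 7.38%, became 3.24%, 3.35% and 3.19%. It also turned the difference in Stra6 detection in the selected cells between MPA+E and placebo from 3.81 to -2.74 points. For single genes, 61 of the values under other tools, filters or cell limits and 196 of those with 1 library left out lost their call. The 77 genes called between selected and remaining cells became 130 with thinned cells, 118 with at least 3 markers, 51 at a minimum of 50 CPM and 74 to 189 with 1 library left out (189 without tumor 2). The share difference between MPA+E and placebo was 6.47 points with thinned cells, and the ratio of involution to puberty 13.7 without the limits on Pi16 and Fabp4. The 220 calls of MPA+E became 406 without a filter, 138 with thinned cells and 111 to 496 with 1 library left out. With the replicate number as a block there were 866; the placebo and MPA+E numbers carry no stated pairing, and their deviations correlated at 0.367 over 12582 genes in 2 pairs. With the mouse as a replicate block the 5093 calls of tumor against hyperplasia became 5141, where Aldh1a1 and Rarres2 lost their calls (adjusted p = 0.0501 and 0.0582) and no other named call changed. They became 2006 with thinned cells and 769 to 5217 with 1 library left out. The 683 interactions with MPA+E became 1386 without a filter and 449 to 1159 with 1 library left out. The 52 interactions with tumor became 757 by edgeR, 33 without a filter, 13 with at least 3 markers, 17 without doublets and 0 to 111 with 1 library left out. The 125 calls of hyperplasia against normal became 1469 by DESeq2, 407 by edgeR, 714 without a filter, 216 with at least 3 markers, 565 with thinned cells and 0 to 115 with 1 library left out, and its 0 interactions 17 by edgeR, 4024 without a filter, 60 with at least 3 markers and 0 to 137 with 1 library left out. The causes were not tested. Leaving out 1 library of the share comparisons was added after the data had been seen and left 1 library in a group. Depth limits the puberty values, which rest on 53 cells.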

Other observations

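Several lists not described above held calls in Crabp1 Pla2g7 fibroblasts. Their counts stand beside 1.29% of all genes tested that rose and 0.461% that fell under MPA+E. In tumors against hyperplasia the same shares were 18.5% and 18.7%. Of 12 lipid signaling genes 1 rose under MPA+E (edgeR), namely Hpgd, which inactivates prostaglandins, at 17.3 and 17.0 CPM under placebo and 66.4 and 43.2 CPM under MPA+E (1.66 ± 0.20, adjusted p = 0.0102; adjusted p = 0.0534 without placebo 1), while the remaining fibroblasts had 29.0 and 24.9 CPM under placebo and 18.7 and 20.5 CPM under MPA+E (difference of log2 fold changes 2.06 ± 0.25, adjusted p = 0.00872). In tumors against hyperplasia (limma-voom) Hpgd measured 54.3 and 63.1 CPM in hyperplasia and 5.78 and 10.6 CPM in tumors (-2.98 ± 0.28, adjusted p = 0.00138), and 5 of the 12 genes fell and 0 rose. The 2 MPA+E libraries were thus above placebo and the 2 tumors below hyperplasia. Of 32 growth factors and cytokines 3 rose under MPA+E: Cxcl14, a chemokine gene, at 99.8 and 102 CPM under placebo and 352 and 233 CPM under MPA+E (1.52 ± 0.18, adjusted p = 0.0106; adjusted p = 0.0643 without placebo 1), Fgf7 (1.62 ± 0.23; 0.0759) and Tgfb2 (1.18 ± 0.16; 0.11). Without placebo 2 the adjusted p of Fgf7 and Tgfb2 was 0.0846 and 0.0817. With thinned cells they changed by 0.77 and 0.26 (adjusted p = 0.658 and 0.924) and with at least 3 markers their adjusted p was 0.0666 and 0.218. By limma-voom that of Fgf7 was 0.0609.

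In tumors 18.5% of all genes tested rose and 18.7% fell, and the counts of the short lists given here are read against these shares. Of 15 genes on the basement membrane list 2 rose and 4 fell, close to those shares. Among them Col15a1 measured 392 and 353 CPM in hyperplasia and 600.0 and 796 CPM in tumors. Sparcl1, which encodes a matricellular protein rather than a basement membrane component, measured 865 and 1029.8 CPM in hyperplasia and 228 and 168 CPM in tumors. Of 6 lobular fibroblast genes Cilp, at 15.6 and 20.1 CPM in hyperplasia and 1309.9 and 500.2 CPM in tumors, and Fndc1 rose, and Tgfbi, at 68.8 and 73.3 CPM in hyperplasia and 8.33 and 14.9 CPM in tumors, fell. The progenitor gene Anxa3 measured 16.3 and 39.7 CPM in hyperplasia and 153 and 114 CPM in tumors (2.24 ± 0.38, adjusted p = 0.00641), the only one of 8 that passed. Nrg1, encoding the ErbB ligand neuregulin 1, measured 0.179 and 0.441 CPM in hyperplasia and 48.8 and 33.5 CPM in tumors (6.88 ± 0.60, adjusted p = 0.00123) and Tgfb3 24.2 and 20.3 CPM in hyperplasia and 107 and 107 CPM in tumors (2.15 ± 0.21, adjusted p = 0.00149). Both tumors lay above both hyperplastic glands for Anxa3, Nrg1 and Tgfb3. Of 7 hedgehog genes 0 rose and 1 fell in tumors, and 0 passed under MPA+E (1 at an unadjusted p under 0.05). Of 5 adipogenesis-regulatory genes 3 fell and 1 rose in tumors, with Fmo2 at 92.5 and 122 CPM in hyperplasia and 20.7 and 7.86 CPM in tumors.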
